A study of Mus musculus with 4 samples.

Results

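Integrins of splenic B cells were followed through 10 genes of the 55401 that the count files list. They were taken by symbol, and the choice was made with earlier results of these data known. They comprise 5 alpha subunits (*Itgal*, *Itga4*, *Itgam*, *Itgae* and *Itga6*), 3 beta subunits (*Itgb2*, *Itgb1* and *Itgb7*) and the 2 cytoplasmic adaptors *Tln1* and *Fermt3*. B220+ B cells had been sorted from the spleen of C57BL/6J mice, and their RNA was sequenced in 4 libraries. Of these, 2 came from NSD1B WT mice (Mb1-Cre+ NSD1+/+) and 2 from NSD1B KO mice (Mb1-Cre+ NSD1fl/fl), in which Mb1-Cre, driven from the *Cd79a* locus, deletes the floxed exons of the H3K36 methyltransferase gene *Nsd1* in the B lineage. Both genotypes therefore carry the Cre. The methods of the whole study describe littermate controls and young adult mice of both sexes, and neither treatment nor immunisation is named in the labels of these libraries. Whether the 2 libraries of 1 genotype came from separate mice is not stated, so every p below measures the spread between these libraries, which may be technical. Because RNA of a bulk sort was counted, fewer cells of a type and less RNA per cell cannot be told apart.

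An integrin is a heterodimer of an alpha and a beta subunit that spans the membrane and binds ligands on other cells or in the extracellular matrix. On B cells the beta2 integrin LFA-1 (*Itgal* with *Itgb2*) and the alpha4 integrins VLA-4 (*Itga4* with *Itgb1*) and LPAM-1 (*Itga4* with *Itgb7*) are the best known, and they take part in adhesion to stroma, homing to lymphoid tissue, retention in the marginal zone and contact with antigen-presenting cells. A resting integrin binds its ligand weakly until talin-1 (*Tln1*) and kindlin-3 (*Fermt3*), the kindlin of blood cells, dock on the short cytoplasmic tail of the beta subunit.

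The docking sites of the adaptors lie at the end of the beta subunit messages, which are shown here because they join the 3 beta subunits to the 2 adaptors. The following are the last 150 coding bases, 5′ to 3′ and without the stop codon, of the longest coding transcript of each beta subunit in GENCODE M21 (GRCm38). Capitals mark in-frame codons of the NPxY or NPxF pattern, of which the proximal is the known site of talin and the distal that of kindlin. The *Itgb2* stretch lies on the plus strand within chr10:77564715-77565237, the *Itgb1* stretch on the plus strand within chr8:128726100-128732085 and the *Itgb7* stretch on the minus strand within chr15:102216163-102216516, each spread over 2 exons.
Itgb2: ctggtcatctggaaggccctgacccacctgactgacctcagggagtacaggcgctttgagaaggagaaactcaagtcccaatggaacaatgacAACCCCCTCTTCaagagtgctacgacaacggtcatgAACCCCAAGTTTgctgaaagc
Itgb1: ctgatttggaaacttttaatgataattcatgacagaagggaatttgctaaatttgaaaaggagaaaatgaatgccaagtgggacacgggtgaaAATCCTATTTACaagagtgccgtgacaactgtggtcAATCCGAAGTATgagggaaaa
Itgb7: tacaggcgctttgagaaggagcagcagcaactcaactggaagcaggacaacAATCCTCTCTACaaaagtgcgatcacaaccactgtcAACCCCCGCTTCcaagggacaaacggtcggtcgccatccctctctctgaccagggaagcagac
Each of the 3 stretches held 2 matches. Of 21500 genes with a coding sequence of that length, 0.795% held at least 1 match in the last 150 coding bases, and only 6 (0.0279%) held 2 or more, namely *Itgb1*, *Itgb2*, *Itgb7*, *Amn*, *Malrd1* and *Ptprb*.

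The libraries held between 6769118 and 7566834 counts on genes. The targeted gene *Nsd1* had 497 and 480 counts in NSD1B WT and 284 and 280 in NSD1B KO, a log2 fold change of -0.74 (SE 0.11), and its count covers the whole gene, exons outside the deleted part included. Of the 10 markers of B cells, 0 were called higher and 8 lower in NSD1B KO, and they summed to between 13400 and 13600 CPM in NSD1B WT and between 11700 and 12700 CPM in NSD1B KO. CPM is the count of a gene per 1000000 counts on genes, after scaling by the TMM method. TMM sets a factor for each library on the assumption that most genes do not differ. The genotypes differed widely. A gene was called when edgeR's quasi-likelihood test gave a Benjamini-Hochberg adjusted p below 0.05 and the fold change was above 1.2, and by this rule 9118 of 11657 genes tested were called (78.2%), of which 4323 were higher in NSD1B KO (37.1% of the genes tested) and 4795 lower (41.1%). Each count below is to be read against these shares. With so many genes called, the assumption of TMM may not hold.

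All 10 genes passed the filter on low counts. In NSD1B KO, 6 of them were lower (*Itgae*, *Itga6*, *Itgb7*, *Itgam*, *Itga4* and *Itgb1*), 2 were higher (*Tln1* and *Fermt3*) and 2 were not called (*Itgal* and *Itgb2*). The 6 that fell are all subunits and the 2 that rose are the adaptors. The share called, 8 of 10, lies near the 78.2% of all genes tested and near the 77.2% of the 6361 genes whose level was at least that of the lowest of the 10. In 9 of 10 genes the NSD1B KO libraries lay wholly above or below the NSD1B WT libraries, which was so for 88.1% of all genes tested. Over all genes tested the log2 fold change had a median of -0.10 and the median of its size without sign was 1.16, so *Itgae*, *Itga6* and *Fermt3* changed by more than the median gene and the other 7 by less. Over the 6361 genes at or above the lowest level that median size was 0.73, which *Itgb7*, *Tln1* and *Itgam* exceeded as well.

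**Figure D1:**
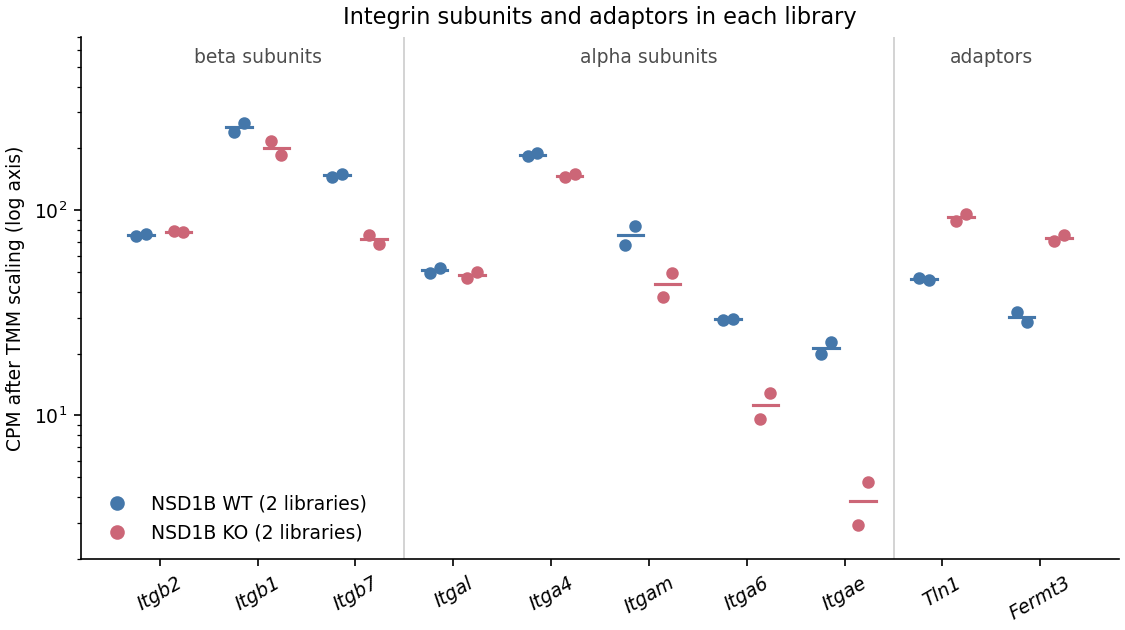
CPM after TMM scaling (log axis) of the 10 genes in each of the 4 libraries, NSD1B WT in blue and NSD1B KO in red, with a bar at the mean of the 2 libraries. *Itgb7*, *Itgam*, *Itga6* and *Itgae* are lower in both NSD1B KO libraries, *Tln1* and *Fermt3* are higher, and *Itgb2* and *Itgal* lie at nearly the same level in the genotypes.

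Among the beta subunits, *Itgb7* changed most. *Itgb7* (chr15:102215995-102231944, minus strand), the partner of alpha4 in the gut-homing receptor LPAM-1 and of alphaE, had 1041 and 1104 counts in the NSD1B WT libraries and 544 and 462 in the NSD1B KO libraries. Both NSD1B KO libraries were low and the genotypes did not overlap. Its level was 148 ± 3.77 CPM (SD, n = 2) in NSD1B WT and 72.1 ± 4.89 CPM (SD, n = 2) in NSD1B KO, which is 2.06-fold lower, with a log2 fold change of -1.04 (SE 0.09) and an adjusted p of 4.88e-14 by edgeR's quasi-likelihood test. A correction that took out the trend of fold changes against exon length and GC content gave -0.58.

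*Itgb1* (chr8:128685654-128733200, plus strand), the beta subunit shared by the VLA receptors for matrix and VCAM-1, had 1729 and 1937 counts in NSD1B WT and 1569 and 1248 in NSD1B KO. The NSD1B KO libraries were lower without overlap, though they lay further apart from each other than from the nearer NSD1B WT library. The means were 253 ± 16.3 CPM and 201.5 ± 23.0 CPM (SD, n = 2 each), a log2 fold change of -0.33 (SE 0.09, edgeR adjusted p = 0.000533). The call rests on single libraries: the log2 fold change was -0.24 without NSD1B WT replicate 2 and -0.21 without NSD1B KO replicate 2, and in neither case did the fold exceed 1.2.

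*Itgb2* (chr10:77530252-77565708, plus strand) encodes CD18, the common beta subunit of the leukocyte integrins. It had 537 and 562 counts in NSD1B WT and 573 and 525 in NSD1B KO. After scaling the NSD1B KO libraries lay just above the NSD1B WT libraries, at 78.7 ± 1.12 CPM against 75.9 ± 1.22 CPM (SD, n = 2 each). The log2 fold change of 0.05 (95% interval -0.15 to 0.25, edgeR adjusted p = 0.631) was not called. Its direction turned with the scaling, being -0.03 with library size alone, and the correction for exon length and GC content gave 0.41 and a call as higher. That correction also moved the median of all genes tested by 0.21, from -0.10 to 0.10, and relative to that median *Itgb2* stood at 0.15 before and 0.31 after it.

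The alpha subunits ranged from no call to the largest change of the 10. *Itgae* (chr11:73090583-73147446, plus strand) encodes CD103, the alphaE chain that pairs with beta7 and binds E-cadherin on epithelium. It had 142 and 166 counts in NSD1B WT and 21 and 32 in NSD1B KO. All counts in NSD1B KO were low and far from those of NSD1B WT, and the level fell from 21.3 ± 2.0 CPM to 3.83 ± 1.30 CPM (SD, n = 2 each). This was 5.56-fold lower, a log2 fold change of -2.48 (95% interval -2.99 to -1.96, SE 0.25, edgeR adjusted p = 3.09e-12).

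*Itga6* (chr2:71745616-71858416, plus strand), which with beta1 forms the laminin receptor VLA-6, had 209 and 217 counts in NSD1B WT and 69 and 87 in NSD1B KO. The NSD1B WT libraries were nearly equal and stood well apart from NSD1B KO. The level was 29.4 ± 0.308 CPM against 11.25 ± 2.36 CPM (SD, n = 2 each), 2.62-fold lower in NSD1B KO (log2 fold change -1.39, SE 0.18, edgeR adjusted p = 2.77e-09).

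*Itga4* (chr2:79255426-79333123, plus strand) encodes CD49d, the alpha subunit that binds VCAM-1 and fibronectin with beta1 and MAdCAM-1 with beta7. Its counts were 1308 and 1384 in NSD1B WT and 1040 and 1009 in NSD1B KO. The fall was small but wider than the spread within either genotype, from 186 ± 4.43 CPM to 147 ± 3.86 CPM (SD, n = 2 each), with a log2 fold change of -0.34 (SE 0.08, edgeR adjusted p = 0.000321). Its exons share 1124 bases, 8.04% of their length, with *Cerkl* on the other strand, and *Cerkl* had 622 and 712 counts in NSD1B WT and 430 and 380 in NSD1B KO. Since the strand setting of the counting is not given, reads of that stretch cannot be assigned to either gene with certainty.

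*Itgal* (chr7:127296260-127335138, plus strand) encodes CD11a, the alpha chain of LFA-1. It had 355 and 383 counts in NSD1B WT and 338 in each NSD1B KO library. The genotypes overlapped, at 51.0 ± 1.92 CPM and 48.6 ± 2.31 CPM (SD, n = 2 each), and the log2 fold change of -0.07 (95% interval -0.30 to 0.16, edgeR adjusted p = 0.574) was not called. The correction for exon length and GC content turned it to 0.22, again without a call (edgeR adjusted p = 0.0665).

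*Itgam* (chr7:128062640-128118491, plus strand) encodes CD11b, the alpha chain of Mac-1, known from myeloid cells and from B1 cells of the body cavities. It had 487 and 615 counts in NSD1B WT and 273 and 334 in NSD1B KO. Every NSD1B KO value lay below every NSD1B WT value, although the NSD1B WT libraries, at 68.1 and 84.0 CPM, also stood apart from each other. The level was 76.1 ± 11.3 CPM in NSD1B WT and 43.7 ± 8.27 CPM in NSD1B KO (SD, n = 2 each), with a log2 fold change of -0.80 (SE 0.12, edgeR adjusted p = 4.92e-08). Of its exon bases, 3450 (68.7%) are also annotated on the same strand to *Gm49368*, which had 0 counts in all 4 libraries.

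Marker lists of cells in which *Itgam* is known moved in both directions. Of the 12 markers of monocytes and macrophages, 9 were tested, of which 7 were higher and 2 lower in NSD1B KO. They summed to 4570 and 4660 CPM in NSD1B WT and 6220 and 5850 CPM in NSD1B KO, nearly all of it from the lysozyme gene *Lyz2*, which ranked between 23 and 29 by count among all genes of a library. *Hmox1* had 0 counts in all 4 libraries, and *Vcam1* and *Fcgr1* had 0 in NSD1B WT. *Adgre1* (F4/80) had 329 and 319 counts in NSD1B WT and 640 and 533 in NSD1B KO and was among the 7 that rose. Others of the 7 rose by more. *Csf1r* went from 23 and 27 counts to 375 and 335 (14.7-fold) and *Ly6c2* from 49 and 38 to 603 and 508 (13.2-fold). *Cd14* went from 4 and 9 to 71 and 77 (11.6-fold). The 2 that fell were *Spic*, a transcription factor of red pulp macrophages, with 92 and 105 counts against 0 and 0, and the chemokine receptor *Ccr2*, with 115 and 110 against 21 and 25. Of the 10 neutrophil markers 2 were tested, 1 higher and 1 lower, they summed to 5.45 and 3.83 CPM in NSD1B WT and 1.8 and 1.93 CPM in NSD1B KO, and *Ly6g*, *Mpo* and *Elane* were at 0 throughout. Among the 10 markers of B1 cells, a list that holds *Itgam* itself, 9 were tested, 4 higher and 4 lower, and they summed to 871 and 899 CPM in NSD1B WT and 658 and 628 CPM in NSD1B KO. The largest part of the sum was *Bhlhe41*, at 430 and 451 CPM against 238 and 233 CPM. *Plscr1*, *Spn* and *Itgam* were lower as well. The 4 higher were *Cd5* (0 and 0 counts against 120 and 103), *Arid3a* (11 and 14 against 73 and 69), *Ctla4* (35 and 22 against 198 and 167) and *Zbtb32* (157 and 155 against 246 and 223). The part of these cell types in the counts of *Itgam* was not tested.

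The adaptors rose. *Tln1* (chr4:43531519-43562691, minus strand), which encodes talin-1, the link from the beta tail to actin, had 335 and 334 counts in NSD1B WT and 641 and 644 in NSD1B KO. The libraries within a genotype nearly coincided. The level was 46.2 ± 0.842 CPM against 92.3 ± 4.70 CPM (SD, n = 2 each), 2.0-fold higher in NSD1B KO (log2 fold change 1.0, SE 0.10, edgeR adjusted p = 5.75e-12). *Fermt3* (chr19:6998958-7019469, minus strand), which encodes kindlin-3, had 228 and 209 counts in NSD1B WT and 510 and 512 in NSD1B KO. Here too all NSD1B KO values stood above all NSD1B WT values, at 73.4 ± 3.70 CPM against 30.2 ± 2.34 CPM (SD, n = 2 each), 2.43-fold higher (log2 fold change 1.28, SE 0.12, edgeR adjusted p = 9.73e-14).

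Both adaptor genes overlap a neighbour on the other strand. *Tln1* shares 360 exon bases (3.67% of its own) with *Creb3*, which had 402 and 432 counts in NSD1B WT and 165 and 119 in NSD1B KO. *Fermt3* shares 89 (1.54%) with *Trpt1*, which had 17 and 15 counts in NSD1B WT and 61 and 48 in NSD1B KO. *Creb3* was lower and *Trpt1* higher in NSD1B KO, and the part of reads from the shared stretches in the counts of the adaptors was not tested. No other gene of the Talin and Kindlin families was counted to any extent, since *Tln2* had 1 count in all and *Fermt1* and *Fermt2* had 0.

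**Figure D2:**
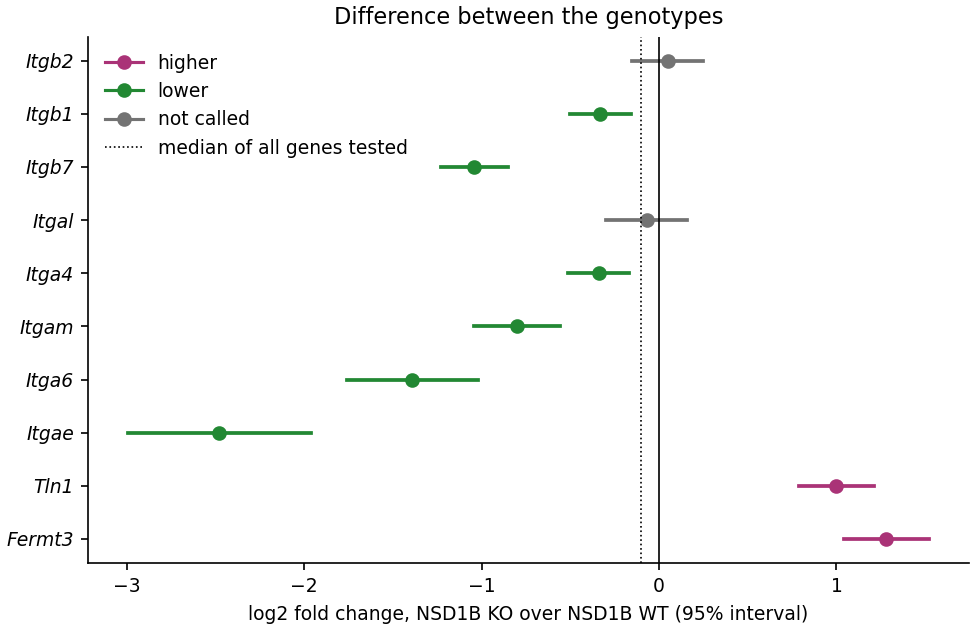
Log2 fold change of NSD1B KO over NSD1B WT for each gene, with its 95% interval. Points are coloured by call, the solid line marks no change and the dotted line the median of all genes tested (-0.10). The intervals of *Itgb2* and *Itgal* cross 0, and *Itgae* at -2.48 and *Fermt3* at 1.28 lie at the ends.

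RefSeq promoter sequences (GRCm38.p6) were at hand for 6 of the 10 genes, namely *Itga4*, *Itgam*, *Itgb1*, *Itgb7*, *Tln1* and *Fermt3*. The 250 bases before the RefSeq start are printed for *Fermt3*, which rose, and for *Itgb7* and *Itgam*, the members of this set that fell most. Capitals mark matches, on either strand, to GAGGAA (known as a PU.1 core), GGAAGT (an Ets core that can overlap it), GGGCGG (the GC box of Sp1) and TGTGGT (a Runx core). The positions are chr19:7019470-7019719 (minus strand), chr15:102231936-102232185 (minus strand) and chr7:128062390-128062639 (plus strand), in that order, and each sequence reads 5′ to 3′ towards the gene.
Fermt3: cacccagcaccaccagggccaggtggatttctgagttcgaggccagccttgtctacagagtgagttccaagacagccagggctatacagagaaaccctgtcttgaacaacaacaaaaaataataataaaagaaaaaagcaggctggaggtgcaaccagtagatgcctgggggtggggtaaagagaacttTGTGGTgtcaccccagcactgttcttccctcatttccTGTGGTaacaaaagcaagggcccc
Itgb7: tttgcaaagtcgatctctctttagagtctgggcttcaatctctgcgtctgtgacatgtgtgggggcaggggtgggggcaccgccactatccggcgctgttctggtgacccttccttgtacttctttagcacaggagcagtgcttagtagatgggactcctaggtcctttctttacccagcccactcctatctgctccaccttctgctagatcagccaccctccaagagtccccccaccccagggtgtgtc
Itgam: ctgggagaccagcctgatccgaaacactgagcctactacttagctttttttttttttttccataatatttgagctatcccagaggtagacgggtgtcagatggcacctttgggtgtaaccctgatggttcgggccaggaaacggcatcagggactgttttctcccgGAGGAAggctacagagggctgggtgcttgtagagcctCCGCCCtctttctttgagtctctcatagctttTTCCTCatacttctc
*Fermt3* held 2 matches to TGTGGT, *Itgam* 2 to GAGGAA and 1 to GGGCGG, and *Itgb7* none of the 4 motifs. In the other promoters, *Itga4* held GGGCGG and TGTGGT once each, *Itgb1* held GAGGAA and GGGCGG once each, and *Tln1* held GAGGAA and GGAAGT once each. Of 32851 promoters of the same length, 23.3% held GAGGAA, 19.7% GGAAGT, 32.7% GGGCGG and 14% TGTGGT. No motif was found in both *Tln1* and *Fermt3*, the genes that rose. A match is a description of the letters and not a bound site.

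Levels of different genes were compared as CPM per kb of merged exon. In NSD1B WT the order ran from *Itgb1* (62.0 CPM per kb) and *Itgb7* (53.5) through *Itgb2* (24.9), *Itgam* (15.1), *Itga4* (13.3), *Itgal* (7.76), *Fermt3* (5.22), *Tln1* (4.72) and *Itgae* (4.64) to *Itga6* (3.26). The libraries of *Itgae* overlapped those of *Tln1* and of *Fermt3* there, and no other genes overlapped. In NSD1B KO it ran from *Itgb1* (49.4) through *Itgb7* (26.0), *Itgb2* (25.8), *Fermt3* (12.7), *Itga4* (10.5), *Tln1* (9.42), *Itgam* (8.71) and *Itgal* (7.39) to *Itga6* (1.25) and *Itgae* (0.837). Here *Itgb7* did not stand clear of *Itgb2*, nor *Tln1* of *Itgam*, nor *Itgam* of *Itgal*. *Fermt3* thus moved from rank 7 to rank 4, and *Itgb7* came down to the level of *Itgb2*. The order depends on the length used, because the merged exons of *Fermt3*, *Itga6* and *Itga4* are much longer than their longest coding transcript: by the latter *Fermt3* stood at 11.7 in NSD1B WT and at 28.4, second after *Itgb1*, in NSD1B KO. If only the *Itgam* exons not shared with *Gm49368* could collect counts, a length chosen after its values were seen, *Itgam* stood at 48.3 CPM per kb in NSD1B WT and 27.8 in NSD1B KO.

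The makeup of the subunit messages shifted with these changes. Of the CPM per kb summed over the 3 beta subunits, *Itgb7* held 38.5% and 37.7% in the NSD1B WT libraries and 25.6% and 25.9% in the NSD1B KO libraries. *Itgb2* went the other way, with 18.0% and 17.4% against 24.4% and 26.7%, and *Itgb1* held at most 44.9% in NSD1B WT and at least 47.4% in NSD1B KO. The genotypes overlapped for none of the 3 shares. *Itgb7* gave up a large part of its share, while *Itgb2* gained share although its own level did not pass the test.

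Among the 5 alpha subunits, *Itgae* held 10.4% and 10.7% in NSD1B WT and 2.38% and 3.38% in NSD1B KO, and *Itga6* 7.75% and 7.07% against 3.97% and 4.66%. *Itgal* held 18.1% and 17.1% against 26.7% and 24.9%, and *Itga4* 31.3% and 29.1% against 38.7% and 34.9%. *Itgam* held 32.5% and 36.0% against 28.2% and 32.2%. These shares depend on the lengths: with counts not divided by length, *Itga4* held 52.3% and 50.1% in NSD1B WT and 59.7% and 56.1% in NSD1B KO, *Itgam* 19.5% and 22.2% against 15.7% and 18.6%, and *Itgae* 5.68% and 6.0% against 1.21% and 1.78%. In NSD1B WT *Itgam* was thus the largest alpha subunit per kb of merged exon and *Itga4* the largest by counts. Per kb of the longest coding transcript *Itga4* (19.0) also stood above *Itgam* (16.2) there. The VCAM-1 and ICAM receptors *Itga4* and *Itgal* thus made up more of a smaller pool, since the summed alpha subunits went from 350 and 378 CPM to 242 and 267 CPM. The beta subunits summed to 462 and 492 CPM in NSD1B WT and 373 and 332 CPM in NSD1B KO, and the 2 adaptors to 78.7 and 74.2 CPM against 160 and 172 CPM.

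**Figure D3:**
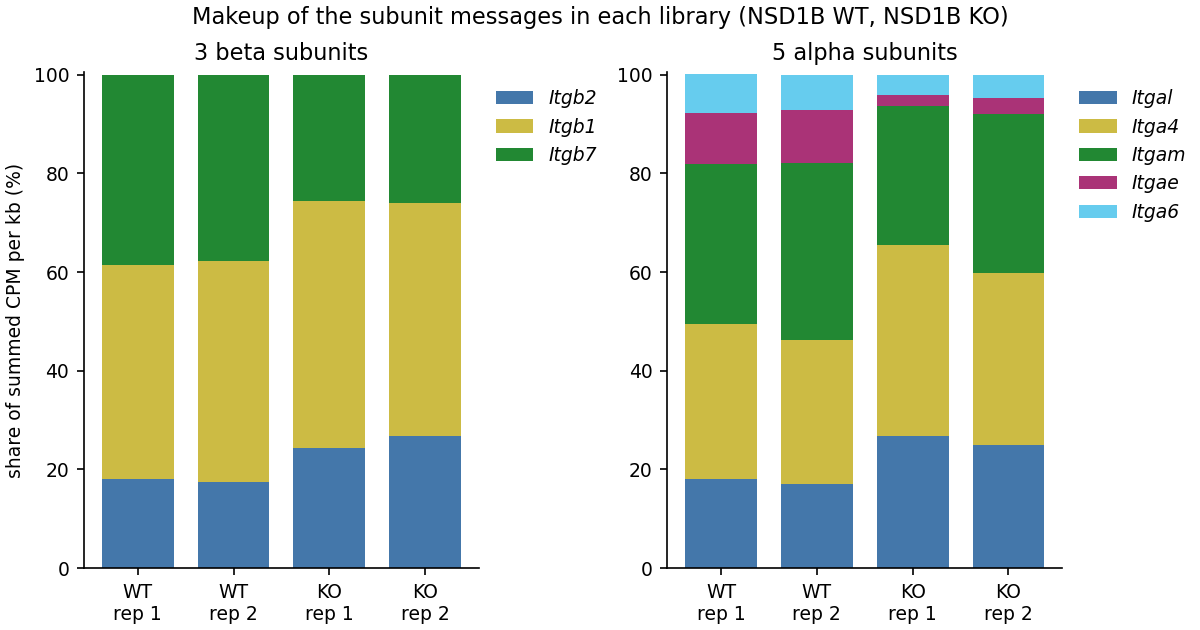
Share (%) of each subunit in the CPM per kb summed over the 3 beta subunits (left) and the 5 alpha subunits (right), for NSD1B WT replicates 1 and 2 and NSD1B KO replicates 1 and 2. The *Itgb7* band shrinks from 38.5% and 37.7% to 25.6% and 25.9%, and the *Itgae* band from 10.4% and 10.7% to 2.38% and 3.38%.

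Partner subunits were compared as the log2 ratio of alpha to beta within a library, which does not depend on library size or TMM factors but can depend on a correction for gene length and GC content. For LFA-1 (*Itgal* to *Itgb2*, per kb) the ratio was -1.70 and -1.66 in NSD1B WT and -1.87 and -1.74 in NSD1B KO, a difference of -0.12. For Mac-1 (*Itgam* to *Itgb2*) it was -0.86 and -0.59 against -1.79 and -1.37, a difference of -0.86. The ratio of Mac-1 partners thus dropped in both NSD1B KO libraries, while that of LFA-1 shifted by less.

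The ratios of *Itga4* to its partners were as follows. The ratio of *Itga4* to *Itgb1* was -2.18 and -2.26 in NSD1B WT and -2.37 and -2.08 in NSD1B KO, and the genotypes overlapped (difference -0.01). The ratio of *Itga4* to *Itgb7* was -2.01 in each NSD1B WT library and -1.40 and -1.21 in NSD1B KO, a difference of 0.70, since *Itgb7* fell by more than *Itga4*. The correction for exon length and GC content would bring that difference down, as it gave log2 fold changes of -0.34 for *Itga4* and -0.58 for *Itgb7*. *Itgae* lost even against its falling partner *Itgb7*, with -3.60 and -3.46 in NSD1B WT against -5.42 and -4.58 in NSD1B KO, a difference of -1.47. *Itga6* lost against *Itgb1*, with -4.19 and -4.30 against -5.65 and -4.99, a difference of -1.07. The ratios are given as a description, with no test.

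The other integrin subunits of the mouse genome were mostly silent. Of 13 further alpha subunits 6 had no count in any library and 2 were tested, and both were higher in NSD1B KO. *Itgav*, the alpha chain of vitronectin receptors, had 57 and 79 counts in NSD1B WT and 518 and 405 in NSD1B KO. Both NSD1B KO libraries were far above, with a log2 fold change of 2.81 (SE 0.16, edgeR adjusted p = 4.24e-21). *Itga2*, the alpha chain of a collagen receptor, had 0 counts in both NSD1B WT libraries and 75 and 67 in NSD1B KO, at least 49.1-fold higher when 3 counts over the genotype are taken as the limit of 0. *Itga5*, the fibronectin receptor chain, had 7 and 3 counts in NSD1B WT and 0 in NSD1B KO and was not tested. *Itga3* had 3 counts in 1 NSD1B KO library, *Itga11* 1 in each NSD1B KO library, and *Itga9* and *Itga10* 1 each in an NSD1B WT library, all too few for any statement. *Itga1*, *Itga2b*, *Itga7*, *Itga8*, *Itgad* and *Itgax* were at 0 throughout.

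Of 5 further beta subunits only *Itgb3* was counted. It had 0 counts in both NSD1B WT libraries and 16 and 19 in NSD1B KO, at least 12.1-fold higher with the same limit, and was called higher. *Itgb4*, *Itgb5*, *Itgb6* and *Itgb8* were at 0, which allows up to 0.207 CPM over NSD1B WT and 0.215 CPM over NSD1B KO. *Itgav* with *Itgb3* forms a vitronectin receptor known from platelets, macrophages and endothelium. Of the 9 platelet markers 2 were tested and both were higher, *Pf4* and *Itgb3* itself, summing to 154 and 167 CPM in NSD1B WT and 226 and 235 CPM in NSD1B KO, while *Itga2b*, *Gp9*, *Ppbp* and *Treml1* were at 0 in all 4 libraries. Of the 9 erythroid markers 5 were tested, all higher, with sums of 39.6 and 35.5 CPM against 1940 and 1690 CPM and with *Klf1* at 0. Of the 8 stromal and endothelial markers 3 were tested, 1 higher and 1 lower, with sums of 205 and 215 CPM against 387 and 343 CPM and with *Cdh5*, *Kdr* and *Pdgfrb* at 0. The libraries were made from B220+ cells whose sort was checked for high purity. Whether RNA of platelets, erythroid cells, macrophages, stroma or endothelium added to *Itgav*, *Itga2*, *Itgb3* or the adaptors was not tested.

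Ligands and counter-receptors within the sorted cells changed in both directions. Of 27 listed, 11 were tested, and 4 were higher, 6 lower and 1 not called, and the median log2 fold change was -3.12 against -0.10 over all genes tested. *Icam1*, the ligand of LFA-1 and Mac-1, had 362 and 330 counts in NSD1B WT and 27 and 22 in NSD1B KO. The fall was 13.6-fold (log2 fold change -3.76, SE 0.20), and both genotypes were tight. *Icam2*, another ligand of LFA-1, had 613 and 565 counts against 565 and 509 and was not called. Matrix genes were among those that rose. *Fn1*, the fibronectin that VLA-4 and VLA-5 bind, had 1493 and 1656 counts against 3441 and 3199 (log2 fold change 1.13, SE 0.08), and *Thbs1*, thrombospondin-1, had 106 and 114 against 365 and 291 (1.63, SE 0.15). *Lamb2*, a laminin chain, had 0 counts in NSD1B WT and was at least 22.5-fold higher in NSD1B KO.

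The junctional adhesion molecules *F11r*, a ligand of LFA-1, and *Jam2*, a ligand of VLA-4, fell to 0 counts in both NSD1B KO libraries, at least 24.1-fold and 21.8-fold lower. *Thy1*, a counter-receptor of Mac-1, was at least 24.4-fold lower and *Lgals3bp*, a secreted protein of the matrix, at least 87.3-fold lower, again with 0 counts in NSD1B KO. The gut endothelial ligand *Madcam1* and the plasma protein *Vtn* were at 0 throughout, and *Vcam1* had 1 count in all. Under a filter of 1 CPM in all 4 libraries, which removes the genes at 0, the median of the list was 1.09.

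The genes of inside-out activation, by which signals within the cell switch integrins on, were lower more often than higher. Of 38 listed, 34 were tested, and 7 were higher, 20 lower and 7 not called, and the median log2 fold change was -0.35. *Rap1b*, the small GTPase that drives integrin activation in blood cells, was among the 3 that rose most, with 2250 and 2265 counts in NSD1B WT and 9718 and 8798 in NSD1B KO (log2 fold change 2.09, SE 0.08). *Apbb1ip* (RIAM), which brings Rap1 to talin, had 63 and 46 counts against 199 and 193 (1.90, SE 0.20), and *Fyb* (ADAP), an adaptor that works with RIAM, 20 and 21 against 130 and 85 (2.43, SE 0.29). *Rap1b*, *Apbb1ip* and *Tln1* were thus all higher in NSD1B KO.

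The 3 genes of the list that fell most, and those at 0 in 1 genotype, were the following. *Rassf5* (RAPL), the Rap1 effector that binds the LFA-1 alpha tail, had 1116 and 1121 counts in NSD1B WT and 76 and 114 in NSD1B KO (log2 fold change -3.50, SE 0.13). *Pip5k1c*, the lipid kinase that binds talin and makes the phosphoinositide it docks on, had 378 and 380 counts against 5 and 2 (-6.66, SE 0.28). *Btk*, the Tec kinase downstream of the antigen receptor, had 111 and 136 against 8 and 13 (-3.48, SE 0.32), and *Vav3*, a guanine nucleotide exchange factor, 98 and 103 against 0 and 0, at least 64.5-fold lower. *Adap1*, which was at 0 in NSD1B WT and at least 24.9-fold higher in NSD1B KO, encodes a GTPase-activating protein of Arf6 and not the adaptor of like name.

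Inhibitors of integrin activation were called in both directions. Of 17 listed, 13 were tested, and 7 were higher, 4 lower and 2 not called, and the median log2 fold change was 0.58, which was 0.37 without NSD1B WT replicate 2. *Sharpin*, which binds alpha tails and holds integrins inactive, rose (log2 fold change 1.69, SE 0.14), as did the Rap1 GTPase-activating protein *Sipa1* (1.09, SE 0.15) and the Rac GTPase-activating protein *Arhgap25* (0.92, SE 0.13). *Flna*, the filamin that competes with talin for the beta tail, had 1164 and 1143 counts in NSD1B WT and 576 and 513 in NSD1B KO (-1.03, SE 0.09). It was lower where talin was higher. The Rap1 GTPase-activating proteins *Rasa3* (-1.06, SE 0.08) and *Sipa1l1* (-1.36, SE 0.29) fell as well. *Dok2*, an adaptor with a phosphotyrosine-binding domain, was at 0 in NSD1B KO and at least 18.3-fold lower, and *Kank2*, which binds talin, was at 0 in NSD1B WT and at least 19.0-fold higher.

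In the adhesion complex that forms on the tails of bound integrins, 32 of 39 listed genes were tested, and 19 were higher, 7 lower and 6 not called, and the median log2 fold change was 0.45. *Ptk2*, focal adhesion kinase, had 2 and 6 counts in NSD1B WT and 150 and 138 in NSD1B KO (log2 fold change 5.18, SE 0.37). *Vcl*, the vinculin that binds stretched talin, had 70 and 79 against 371 and 318 (2.26, SE 0.16), and *Ilk*, integrin-linked kinase, 52 and 69 against 271 and 228 (2.09, SE 0.18). All NSD1B KO libraries were above all NSD1B WT libraries for these 3. *Ilk* shares 76.8% of its exon bases with *Taf10* on the other strand and *Vcl* 25.5% with *Ap3m1*, so part of their counts may belong to the neighbour. *Parvb*, a parvin that binds integrin-linked kinase, was at 0 in NSD1B WT and at least 33.2-fold higher. *Lims1* (PINCH1), the other partner of that kinase, was lower (-0.40, SE 0.09), as were the actin regulators *Vasp* (-1.97, SE 0.23) and *Actn4* (-1.38, SE 0.20).

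Of 19 genes of integrin trafficking and recycling 16 were tested, and 6 were higher, 7 lower and 3 not called, and the median log2 fold change was -0.12. The count of lower genes was 4 without NSD1B KO replicate 2. *Rab5a*, which directs early endosomes, rose (log2 fold change 2.40, SE 0.16), *Commd3* rose slightly (0.41, SE 0.08), and *Ccdc93*, a subunit of the same endosomal complex, was at 0 in NSD1B WT and at least 20.4-fold higher. The retromer subunit *Vps35* (-1.46, SE 0.11), the Arf6 GTPase-activating protein *Acap1* (-0.98, SE 0.23), which takes part in beta1 recycling, and *Rab11b* of recycling endosomes (-0.91, SE 0.10) fell.

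Of 20 other adhesion receptors of B cells all were tested, and 5 were higher, 7 lower and 8 not called, and the median log2 fold change was -0.06. The correction for length and GC content gave 9 higher and 4 lower. *Cd2*, the receptor of CD48, had 5982 and 6091 counts in NSD1B WT and 436 and 426 in NSD1B KO (log2 fold change -3.75, SE 0.09). *Selplg*, the selectin ligand PSGL-1, had 1027 and 1036 against 110 and 103 (-3.22, SE 0.12). *Cd151*, a tetraspanin that associates with laminin-binding integrins such as VLA-6, had 108 and 146 counts against 0 and 1, a ratio of NSD1B WT to NSD1B KO of 245 with a 95% counting interval of 43.5 to 9700. It thus fell along with *Itga6*. The SLAM receptors *Cd84* (0.77, SE 0.10) and *Ly9* (2.17, SE 0.27) rose.

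**Figure D4:**
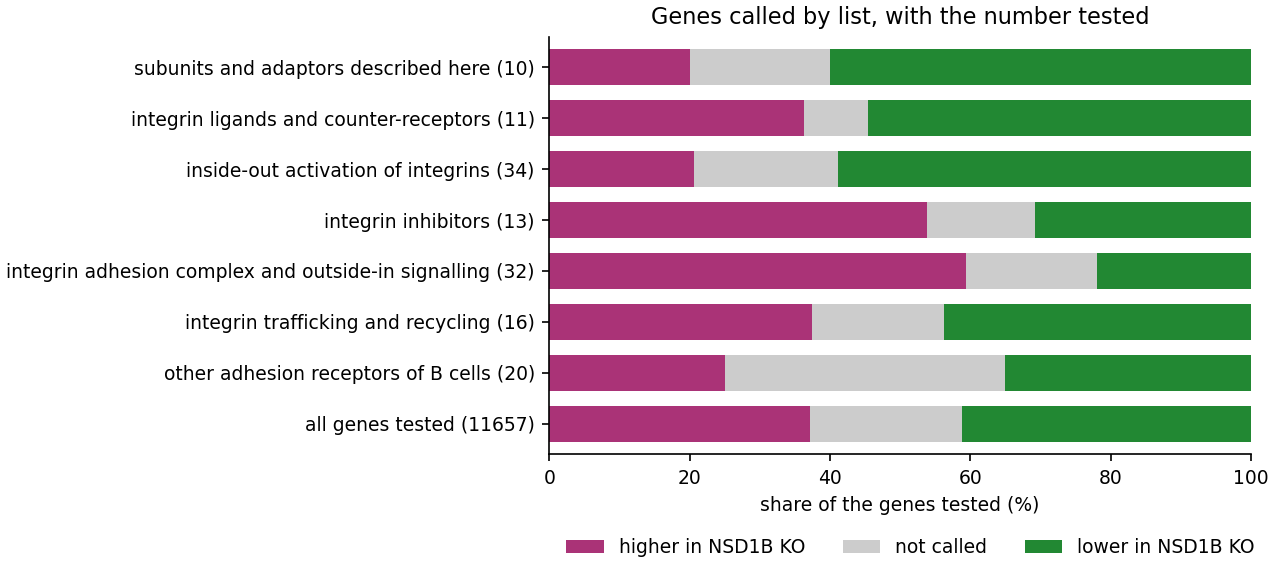
Share (%) of the genes tested that were higher (purple), not called (grey) or lower (green) in NSD1B KO, for the 10 genes, the pathway lists with at least 10 genes tested and all genes tested, with the number tested in brackets. All genes tested were 37.1% higher and 41.1% lower, and of the 34 genes of inside-out activation 20 were lower, whereas of the 32 genes of the adhesion complex 19 were higher.

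Markers of other cells that carry integrins had low sums, and those of NK cells mostly rose. Of 13 T cell markers 8 were tested, 3 higher and 4 lower, with sums between 95.6 and 103 CPM in the 4 libraries and *Cd4* and *Cd8a* at 0. *Trbc1* rose from 7 and 7 counts in NSD1B WT to 131 and 108 in NSD1B KO. *Cd3g* rose from 125 and 119 to 258 and 235. *Trac* fell from 183 and 214 to 92 and 64, and *Il7r* from 62 and 63 to 5 and 2. Of 8 NK cell markers 5 were tested, 4 higher and 1 lower, with 56.5 and 59.8 CPM in NSD1B WT against 107 and 105 CPM in NSD1B KO and *Ncr1* at 0. Their median log2 fold change was 3.34. *Prf1* rose from 0 and 0 counts to 87 and 89, and *Klrd1* from 0 and 0 to 62 and 59. *Klrk1* rose from 5 and 2 to 47 and 24, and *Nkg7* from 373 and 415 to 575 and 536. *Klrb1c* fell from 26 and 21 to 0 and 0. Of 8 markers of conventional dendritic cells, which are known for *Itgae* and *Itgax*, 3 were tested, 1 higher and 1 lower, with 60.2 and 69.3 CPM against 29.7 and 22.3 CPM, *Sirpa* going from 239 and 323 counts to 0 and 0 and *Xcr1* from 0 and 0 to 36 and 26, and with *Flt3*, *Zbtb46*, *Clec9a* and *Itgax* at 0. Of 8 markers of plasmacytoid dendritic cells 2 were tested and 1 was higher, with 80.1 and 75.6 CPM against 116 and 115 CPM and *Siglech* at 0. The part of dendritic cells in the fall of *Itgae* was not tested.

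Markers of B cell subsets also moved. Of 10 markers of marginal zone B cells 7 were tested, 2 higher and 4 lower, with 544 and 562 CPM in NSD1B WT and 384 and 370 CPM in NSD1B KO. Of 7 follicular markers all were tested, 3 higher and 1 lower, with 2080 and 2060 CPM against 2850 and 2740 CPM. Of 8 germinal centre markers 5 were tested, 2 higher and 3 lower, with sums between 31.9 and 43.9 CPM in the 4 libraries, and of 7 plasma cell markers 5 were tested, 2 higher and 3 lower, with 302 and 297 CPM against 245 and 243 CPM. How far the makeup of the sorted B cells set the integrin levels was not tested.

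Other ways of processing left the picture of the 8 called genes largely as it was. Each log2 fold change was recomputed under 17 alternatives, 4 of which left out a library. *Itgae*, *Itga6*, *Itgb7*, *Itgam*, *Tln1* and *Fermt3* kept their direction and their call under all 17, with ranges of -2.85 to -2.16, -1.61 to -1.19, -1.12 to -0.58, -1.0 to -0.61, 0.92 to 1.27 and 1.2 to 1.66. *Itga4* ranged from -0.42 to -0.29 and *Itgb1* from -0.45 to -0.21, always lower, but each lost its call under at least 1 alternative. *Itgal* ranged from -0.15 to 0.22 and *Itgb2* from -0.03 to 0.41, across 0.

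**Figure D5:**
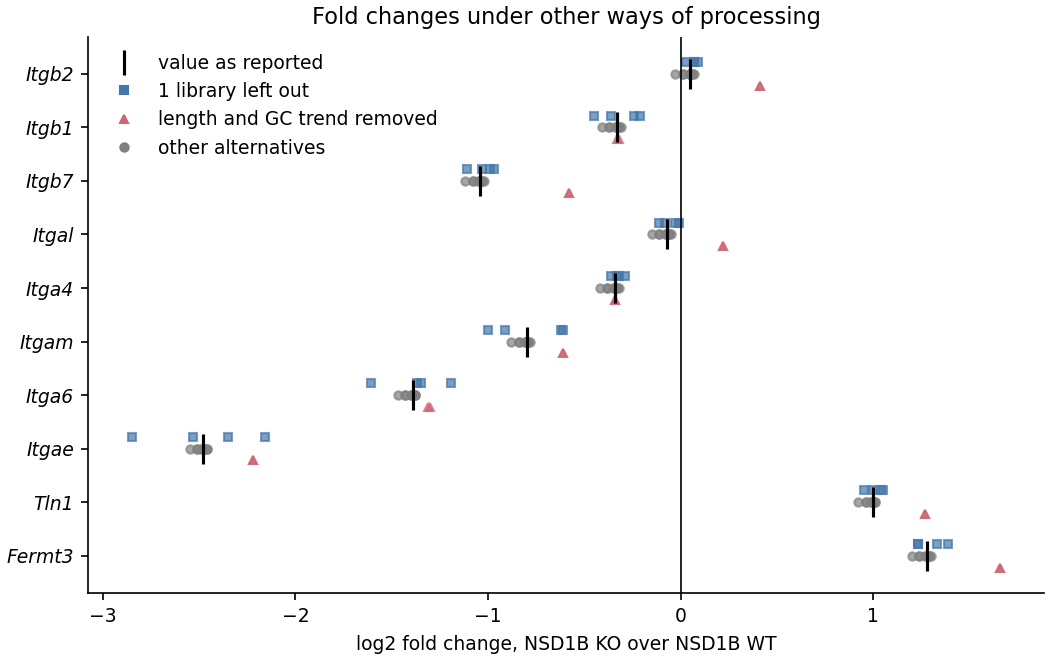
Log2 fold change of NSD1B KO over NSD1B WT for each gene as reported (black bar), with 1 of the 4 libraries left out (blue squares), corrected for length and GC content (red triangles) and under the other alternatives (grey circles). *Itgal* crosses 0 with the triangles at 0.22 and *Itgb2* with library size alone at -0.03, and the other 8 genes stay on their side of 0.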

How the data were processed

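RNA of B220+ spleen B cells was measured in 4 libraries, 2 of NSD1B WT and 2 of NSD1B KO. The deposited values are whole-number counts of reads on each gene, which the authors made from paired-end reads aligned to mm10 by Bowtie2. The labels also name Cufflinks, whose values were not used here. Which program counted the reads, and whether by strand, is not given in the sources used here. Lines that name no gene (reads on no feature, 44.3% to 44.6% of counted reads, ambiguous reads, 2.21% to 2.41%, and reads that were not unique, 11.2% to 13.2%) were left out.

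Of 55401 gene identifiers, 55141 matched GENCODE M21 without their version, which gave positions and exon lengths. Genes were kept by filterByExpr (minimum count 10, minimum total 15), scaled by TMM and tested by glmQLFTest of edgeR 4.0.16 in R 4.3.3, with Benjamini-Hochberg adjustment over 11657 genes. A gene was called at adjusted p below 0.05 and fold above 1.2. The common dispersion was 0.00539. Alternatives used DESeq2 1.42.0, limma 3.58.1 (voom), other scalings, filters and thresholds, each library left out, the replicate number as a block, loess offsets (span 0.5) on exon length and GC content, and no immunoglobulin genes. Where a genotype had 0 counts, folds were computed against 3 counts over the genotype. For 1 to 3 counts a ratio with an exact 95% binomial interval was computed. Such limits and intervals cover counting error only.

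The genes described, the pathway and marker lists, the rule for naming genes and the alternatives were chosen with earlier results of these data known. By that rule the text names all 10 genes, every other integrin subunit with a count, and from each list up to 3 called genes with the largest rise and fall (mean log2 CPM of at least 3) and genes at 0 in 1 genotype with at least 50 counts in the other. *Icam2*, *Madcam1*, *Vtn*, *Vcam1*, *Tln2*, *Fermt1*, *Fermt2* and single markers were named after their values were seen. A further gene that the rule names is not reported here.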

Additional observations from a re-analysis of the deposited data

How the results depend on the processing

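Under a filter of 1 CPM in all 4 libraries, which tests fewer genes, 2855 genes were higher and 2991 lower in place of 4323 and 4795. Corrected for exon length and GC content, *Itgal* turned to 0.22 and *Itgb2* to 0.41, the latter called (edgeR adjusted p = 0.000157), and together with the replicate block the values were again 0.22 and 0.41. With library size alone *Itgb2* was -0.03. At an adjusted p below 1e-05 and a log2 fold change above 0.5 on either side, *Itga4* at -0.34 and *Itgb1* at -0.33 were no longer called. With 1 library left out, *Itgb1* ranged from -0.45 to -0.21, and there the genotype with a lone library is assumed to vary like the other. The cause of these moves was not tested. Among the lists, the medians for trafficking (-0.12) and other adhesion receptors (-0.06) turned to 0.09 and 0.11 after the same correction. The stricter threshold left 13 lower genes of inside-out activation in place of 20, 11 higher and 4 lower of the adhesion complex in place of 19 and 7, 3 lower of trafficking in place of 7 and 4 lower of the other adhesion receptors in place of 7. The filter of 1 CPM left 1 lower ligand in place of 6, 3 higher trafficking genes in place of 6, *Itgav* alone of the other alpha subunits and none of the other beta subunits. Genes at 0 set to their bound left the medians of the 6 lists given above as they were.

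The replicate numbers in the labels name the libraries only, and the deviations of libraries with the same number correlated by 0.0645, so they were not treated as pairs. With the replicate block 4254 genes were higher and 4706 lower, *Itgae* stood at -2.48, and the block alone changed no call among the 10 genes. With 2 libraries a genotype, *Itgae* in NSD1B KO, at 21 and 32 counts, has the least depth of the 10 genes, and a difference as small as that of *Itgb2* was not detectable.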
